A study of Arabidopsis thaliana with 4 samples.

Results

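Histones are the proteins that package DNA. An octamer of the core histones H2A, H2B, H3 and H4 forms the nucleosome, and the linker histone H1 binds where DNA enters and leaves it. Most core histones are made during DNA replication, when new chromatin needs them, whereas variants such as H3.3 and H2A.Z are also placed outside replication by their own chaperones. In plants, unlike in animals, the mRNAs of replication-type histones carry poly(A) tails, so that libraries of poly(A) RNA include them. In Arabidopsis, loss of ARP6, a subunit of the SWR1 complex that places H2A.Z, is known to alter the expression of several phosphate starvation genes.

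The values of 41 Arabidopsis genes for core and linker histones, given by gene identifier, were taken from a table of 27655 genes. They comprise 13 H2A, 9 H2B, 8 H3, 8 H4 and 3 H1 genes. They were split into 33 replication-type genes and 8 variant genes, those of H2A.Z, H3.3 and H1.3. H2A.X and H2A.W, which are sequence variants too, were kept with the replication-type genes. The libraries came from roots of wild-type Col-0 seedlings after 8 days in Murashige and Skoog medium at 5 µM phosphate (low_Pi, 2 libraries) or at 625 µM phosphate (plus_Pi, 2 libraries). The name of the table calls the roots dark grown. The study is about cis-zeatin, a cytokinin, and how roots respond when phosphate is short, and the comparison asks how root transcripts differ between these phosphate supplies.

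Column totals were 38831704 to 42069421 in low_Pi and 40584090 to 44635953 in plus_Pi, and the read depth behind them is unknown. The columns of a group were close to scaled copies of each other for the histone genes, but not for every gene. Over all genes past the filter, the ratio of replicate 1 to replicate 2 ran from 0.25 to 8.94 in low_Pi and from 0 to 5.89 in plus_Pi, around medians of 1.08 and 0.910. Over the 40 histone genes past the filter on low values, the ratio of replicate 1 to replicate 2 lay between 1.06 and 1.12 in low_Pi and between 0.869 and 0.965 in plus_Pi, against ratios of the column totals of 1.08 and 0.909. Had the values been read counts, the gaps over histone genes would be smaller than sampling noise, with a chi-square per gene of 0.193 in low_Pi and 0.312 in plus_Pi where independent counts give about 1. IPS1, a non-coding RNA induced by phosphate starvation, read 27943 and 26144 in the low_Pi libraries and 99 and 412 in the plus_Pi libraries, so that plus_Pi replicate 2 was closer to low_Pi than plus_Pi replicate 1 was. Without that library the log2 difference of H1.3 was 2.30, and the number of histone genes at least 2-fold higher stayed at 2. Each group was counted as 1 sample, and no difference below has a replicate check, a p-value or a standard deviation. All 5 markers of green tissue were detected. Their summed values were 1655 and 1510 in low_Pi and 2921 and 3191 in plus_Pi, and the part of such tissue in any result was not tested.

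H1.3 stood apart from the other histone genes, and it was far higher in low_Pi. Of the 40 genes tested, 2 were at least 2-fold higher in low_Pi, H1.3 and HTA1, against 4.58% of all 18729 genes tested. None was at least 2-fold lower, against 4.47% of all genes. The 2 genes are 5% of the histone genes tested, which is near the background, so that the count itself does not set the histone genes apart. With a 1.5-fold rule H1.3 and HTA1 were again the 2 higher genes, against 8.77% of all genes, and none was lower, against 20.7% of all genes. In all, 25 of the 40 lay above 0, against 28.6% of all genes. As a group the genes lay slightly above the rest of the transcriptome: the median log2 difference, low_Pi minus plus_Pi, was 0.05 over the 40 genes, against -0.26 over all genes (-0.02 and -0.32 without plus_Pi replicate 1, and 0.10 and -0.19 without plus_Pi replicate 2), and 37 of the 40 lay above the median of all genes, as 50% of all genes do. Both low_Pi values were above both plus_Pi values for 16 genes, against 21.9% of all genes, and below them for 8, against 62.5% of all genes. All log2 differences are on the scale of log2(value + 41.5), which understates differences of genes with low values. They use the values as deposited. Median-of-ratios scaling would set the median of all genes at 0.00 and add 0.23 to 0.28 to each histone gene, so that genes are also placed below by whether they lie above or below that median. In bulk roots, fewer cells of a type and less RNA per cell cannot be told apart.

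**Figure D1:**
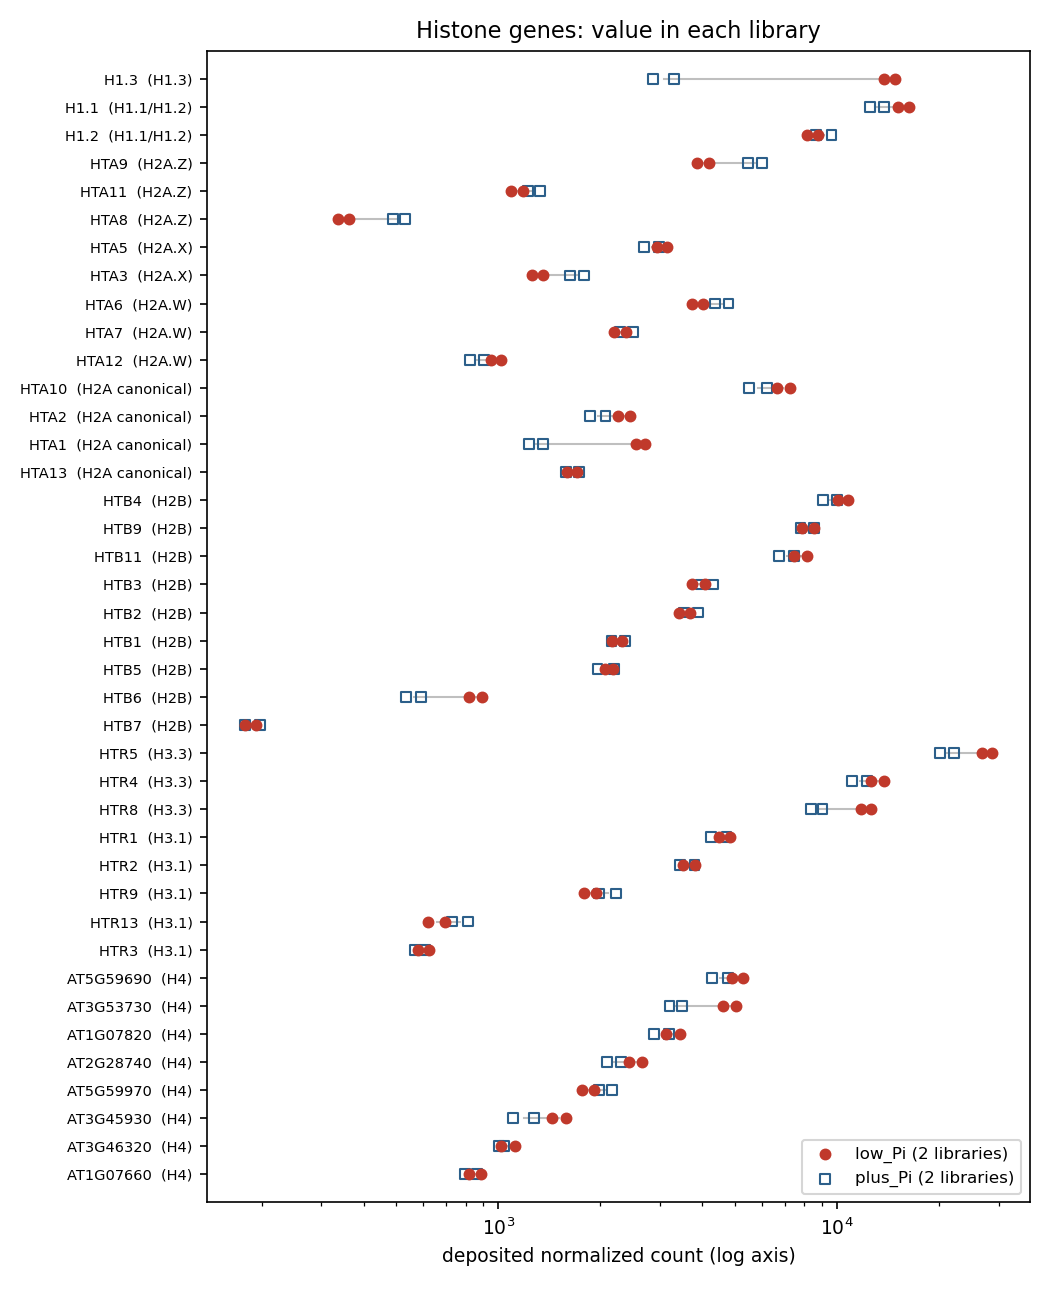
Deposited normalized count of each of the 40 histone genes past the filter (log axis), with filled circles for the 2 low_Pi libraries and open squares for the 2 plus_Pi libraries; a grey line joins the group means. H1.3 has the widest gap, 14282 against 3077 on average, and for most genes the symbols lie close together or overlap.

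The histone genes together held a larger share of the transcriptome in low_Pi. Their summed values made up 0.479% and 0.480% of the column totals in low_Pi and 0.387% and 0.388% in plus_Pi. Of this, the 33 replication-type genes held 0.299% in each low_Pi library and 0.264% and 0.265% in plus_Pi. The 8 variant genes held 0.180% and 0.181% in low_Pi and 0.122% in each plus_Pi library. Within the variant genes, H1.3 held 0.0352% and 0.0354% in low_Pi, against 0.00705% and 0.00738% in plus_Pi, and the H3.3 genes held 0.131% and 0.132% in low_Pi, against 0.0977% and 0.0974% in plus_Pi. The H2A.Z genes went the other way, with 0.0136% in each low_Pi library, against 0.0177% and 0.0176% in plus_Pi.

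H1.3 encodes the stress-inducible linker histone of Arabidopsis, a shorter protein than the main linker histones H1.1 and H1.2. Its coding sequence has 504 bases, against 825 for H1.1 and 822 for H1.2. H1.3 (AT2G18050, annotated as HIS1-3) lies on chromosome 2 at positions 7845923 to 7847031 of TAIR10.1, on the plus strand, with 2 coding exons. It had 14805 and 13758 in low_Pi, compared with 2862 and 3292 in plus_Pi. The groups were far apart, with a log2 difference of 2.20 (4.64-fold between the means) that ran from 2.05 to 2.35 over the 4 pairings of a low_Pi with a plus_Pi library. This difference ranked 218 of 18729 genes from the highest. H1.3 shared no 50-base stretch with another annotated transcript and overlapped no other gene.

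The main linker histone genes differed far less than H1.3. H1.1 (AT1G06760) had 16321 and 15085 in low_Pi, versus 12482 and 13735 in plus_Pi. Its log2 difference was 0.26, or 0.54 with median-of-ratios scaling. H1.2 (AT2G30620) had 8797 and 8138 in low_Pi, compared with 8657 and 9629 in plus_Pi, a log2 difference of -0.11 that was 0.17 with median-of-ratios scaling. The H1.1 values did not overlap between the groups, while those of H1.2 did. Per kb of annotated exon, H1.3 made up 44.2% and 44.3% of the summed H1 level in low_Pi, against 15.6% and 16.2% in plus_Pi. H1.1 made up 40.6% and 40.5% in low_Pi, against 56.9% and 56.3% in plus_Pi, and H1.2 15.2% in each low_Pi library, against 27.5% in each plus_Pi library. On this scale H1.3 was thus the linker histone gene with the highest level in low_Pi and the one with the lowest in plus_Pi. The first place in low_Pi depends on the correction for length, since the uncorrected value of H1.1 exceeded that of H1.3 in both low_Pi libraries. Without the correction the H1.3 share was 37.1% and 37.2% in low_Pi, against 11.9% and 12.3% in plus_Pi. Such shares within a library do not depend on how libraries are scaled to each other. Of the 50-base stretches of H1.1, 39.2% also occur in an annotated transcript on the opposite strand, and whether the counting used strand is not given in the sources used here.

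**Figure D2:**
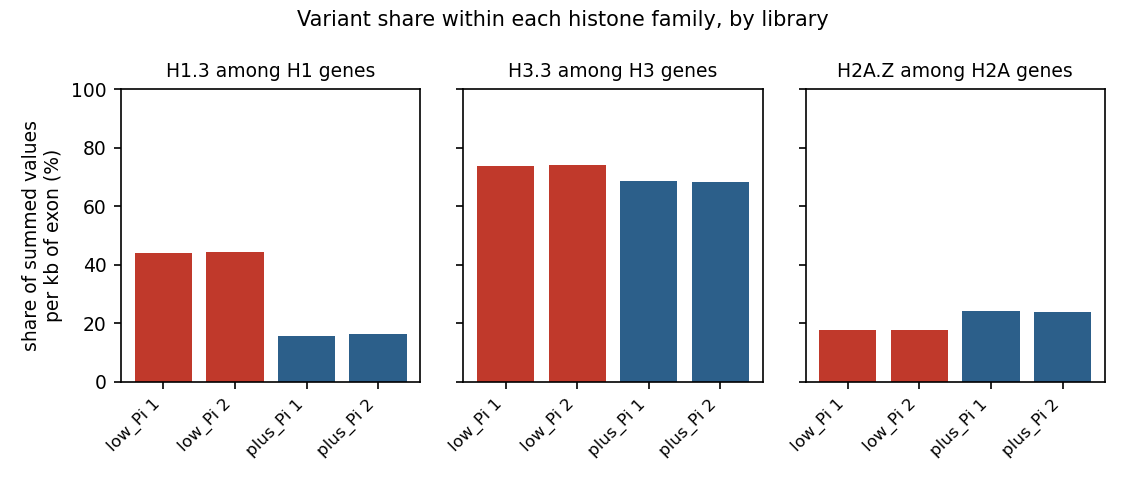
Share (%) of H1.3 in the summed values of the H1 genes, of H3.3 in those of the H3 genes and of H2A.Z in those of the H2A genes, all per kb of annotated exon, with 1 bar for each library (low_Pi in red, plus_Pi in blue). The H1.3 share is 44.2% and 44.3% in low_Pi against 15.6% and 16.2% in plus_Pi, the H3.3 share is higher in low_Pi and the H2A.Z share is lower.

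Sequences upstream of all 3 linker histone genes are shown to compare the members of 1 family. Plant histone promoters are known for the octamer CGCGGATC, which is found in promoters active during DNA replication. The 250 bases before the annotated start of each gene were searched on both strands for the octamer, the histone nonamer CATCCAACG, the hexamer ACGTCA, the E2F sites TTTCCCGC and TTTGGCGC, and P1BS, the binding site GNATATNC of the phosphate starvation regulator PHR1. None of the matches found in these windows overlapped a match of another motif. The upstream sequence of H1.3 is at chr2:7845673-7845922 (plus strand), that of H1.2 at chr2:13044681-13044930 (plus strand) and that of H1.1 at chr1:2077768-2078017 (minus strand) of TAIR10.1, read from the RefSeq genome 5′ to 3′ along the gene. Capitals mark motif matches.
H1.3: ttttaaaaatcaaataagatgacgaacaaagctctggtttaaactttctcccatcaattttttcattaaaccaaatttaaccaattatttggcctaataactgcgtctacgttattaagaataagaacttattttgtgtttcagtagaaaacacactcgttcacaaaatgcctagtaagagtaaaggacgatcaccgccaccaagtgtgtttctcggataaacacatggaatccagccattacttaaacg
H1.2: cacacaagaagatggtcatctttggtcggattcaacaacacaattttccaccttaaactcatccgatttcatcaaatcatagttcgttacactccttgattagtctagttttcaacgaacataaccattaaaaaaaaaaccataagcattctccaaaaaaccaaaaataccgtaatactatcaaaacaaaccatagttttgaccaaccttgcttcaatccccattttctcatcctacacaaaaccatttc
H1.1: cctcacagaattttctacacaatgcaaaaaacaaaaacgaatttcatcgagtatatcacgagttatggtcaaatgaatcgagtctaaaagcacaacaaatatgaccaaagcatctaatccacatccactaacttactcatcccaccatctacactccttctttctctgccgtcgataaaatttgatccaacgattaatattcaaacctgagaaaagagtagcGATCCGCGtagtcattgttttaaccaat
The windows of H1.3 (log2 2.20) and H1.2 (log2 -0.11) hold none of these motifs. That of H1.1 (log2 0.26) holds the octamer in reverse orientation.

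Across the histone genes, the octamer was present upstream of 10 of 41, or 24.4%, against 0.135% of the 27443 protein-coding genes of the table. It was found for 9 of the 33 replication-type genes and for 1 of the 8 variant genes, the H3.3 gene HTR5. The hexamer was also upstream of 10 genes, or 24.4%, against 7.69% of all promoters, 7 of them H2B genes. An E2F site was found for 2 H4 genes, AT3G45930 and AT3G46320, or 4.88%, against 0.958% of all promoters. The windows of these 2 genes are near copies with the match at the same position, so they are not separate cases. The nonamer and P1BS were in none of the 41 windows, against 0.149% and 5.46% of all promoters. The 10 genes with the octamer had a median log2 difference of 0.05 and a range of -0.23 to 0.39, and the 30 tested genes without it had a median of 0.05 and a range of -0.50 to 2.20. The letters of these windows start at the annotated gene start, and a promoter used in roots may start elsewhere.

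The core histone H2A genes differed by type. As deposited, 3 of 4 canonical H2A genes lay above 0, against 28.6% of all genes. H2A.Z was lower in low_Pi except HTA11, whose sign depended on scaling. The 4 canonical H2A genes had a median log2 difference of 0.25. HTA1 (AT5G54640), also known as RAT5 for its part in transformation by Agrobacterium, had 2717 and 2554 in low_Pi, versus 1230 and 1356 in plus_Pi. Its groups did not overlap, and its log2 difference was 1.01. That is at the edge of the 2-fold rule: it was 0.96 without low_Pi replicate 1 and 0.94 without plus_Pi replicate 1, and 0.92 with a pseudocount of 208. The next gene below the rule was HTB6 at 0.57. HTA10 (AT1G51060), the canonical H2A gene with the highest level per kb of exon, had 7251 and 6626 in low_Pi, compared with 5501 and 6214 in plus_Pi (log2 0.24). HTA2 stood at log2 0.25 and HTA13 (AT3G20670) at -0.01. HTA10 and HTA13 share some sequence, 4.81% of the 50-base stretches of HTA10, so that their counts are less certain.

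HTA1 and HTA10 are set side by side because both are canonical H2A genes, 1 of them without and 1 with the octamer. The window of HTA1 is at chr5:22196037-22196286 and that of HTA10 at chr1:18926561-18926810, both on the plus strand of TAIR10.1.
HTA1: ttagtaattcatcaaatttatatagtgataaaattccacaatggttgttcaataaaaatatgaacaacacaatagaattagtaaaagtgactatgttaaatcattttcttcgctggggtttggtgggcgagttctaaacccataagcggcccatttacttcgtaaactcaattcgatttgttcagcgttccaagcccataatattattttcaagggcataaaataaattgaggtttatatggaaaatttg
HTA10: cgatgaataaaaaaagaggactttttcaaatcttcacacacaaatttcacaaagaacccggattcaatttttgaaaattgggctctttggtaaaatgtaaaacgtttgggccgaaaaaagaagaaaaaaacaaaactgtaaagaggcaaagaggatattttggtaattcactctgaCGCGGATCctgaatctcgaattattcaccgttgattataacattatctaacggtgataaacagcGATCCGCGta
HTA10 holds the octamer in both orientations, and HTA1 holds none of the motifs searched. Of the other canonical H2A genes, HTA2 (log2 0.25) holds none and HTA13 (log2 -0.01) holds the octamer.

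The H2A.Z genes HTA9 and HTA8 were lower in low_Pi under every scaling tried, and HTA11 was lower as deposited but not with median-of-ratios scaling (0.11). Their median log2 difference was -0.50. H2A.Z marks responsive genes and the nucleosomes that flank transcription starts. HTA9 (AT1G52740), the H2A.Z gene with the highest level, had 4188 and 3859 in low_Pi, versus 5456 and 5993 in plus_Pi (log2 -0.50). HTA8 (AT2G38810) had 361 and 337 in low_Pi, compared with 488 and 530 in plus_Pi (log2 -0.50). HTA11 (AT3G54560) had 1179 and 1089 in low_Pi, versus 1225 and 1324 in plus_Pi (log2 -0.16). In none of the 3 did the groups overlap, with low_Pi lower as for 62.5% of all genes, HTA9 and HTA8 lay below the median of all genes and HTA11 above it, and with median-of-ratios scaling the class median was -0.23. HTA4 (AT4G13570), grouped here with H2A.Z, did not pass the filter: it was listed at 0 in both low_Pi libraries and had 7 in each plus_Pi library. Per kb of exon, H2A.Z made up 17.6% of the summed H2A level in each low_Pi library, against 24.1% and 24.0% in plus_Pi, while canonical H2A made up 47.3% and 47.2% in low_Pi, against 37.5% and 37.8% in plus_Pi. HTA9 overlaps AT1G52750 on the opposite strand, a gene with a mean of 1869.25.

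The H2A.X and H2A.W genes lay between these, with medians of -0.14 and -0.06 that were 0.13 and 0.21 with median-of-ratios scaling. Without plus_Pi replicate 1 the medians were -0.21 and -0.13, and without plus_Pi replicate 2 they were -0.07 and -0.0002. H2A.X is phosphorylated at DNA breaks, and H2A.W is the H2A of heterochromatin. Of the H2A.X genes, HTA3 (AT1G54690) had 1357 and 1254 in low_Pi, compared with 1628 and 1790 in plus_Pi (log2 -0.38), and is the 1 replication-type gene below the median of all genes. HTA5 (AT1G08880) had 3136 and 2947 in low_Pi, versus 2696 and 2982 in plus_Pi (log2 0.10), with overlapping groups. Of the H2A.W genes, HTA6 (AT5G59870) had 4024 and 3732 in low_Pi, compared with 4358 and 4780 in plus_Pi (log2 -0.23, or 0.04 with median-of-ratios scaling). HTA7 (AT5G27670) stood at log2 -0.06 and HTA12 (AT5G02560) at 0.17. The share of H2A.W in the summed H2A level per kb was 22.7% in each low_Pi library, against 25.2% and 25.0% in plus_Pi, and that of H2A.X was 12.3% and 12.4% in low_Pi, against 13.2% in each plus_Pi library. HTA3 shares 53.3% of its 50-base stretches with AT1G54680 and with a long non-coding RNA on the opposite strand, and its value is therefore uncertain.

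**Figure D3:**
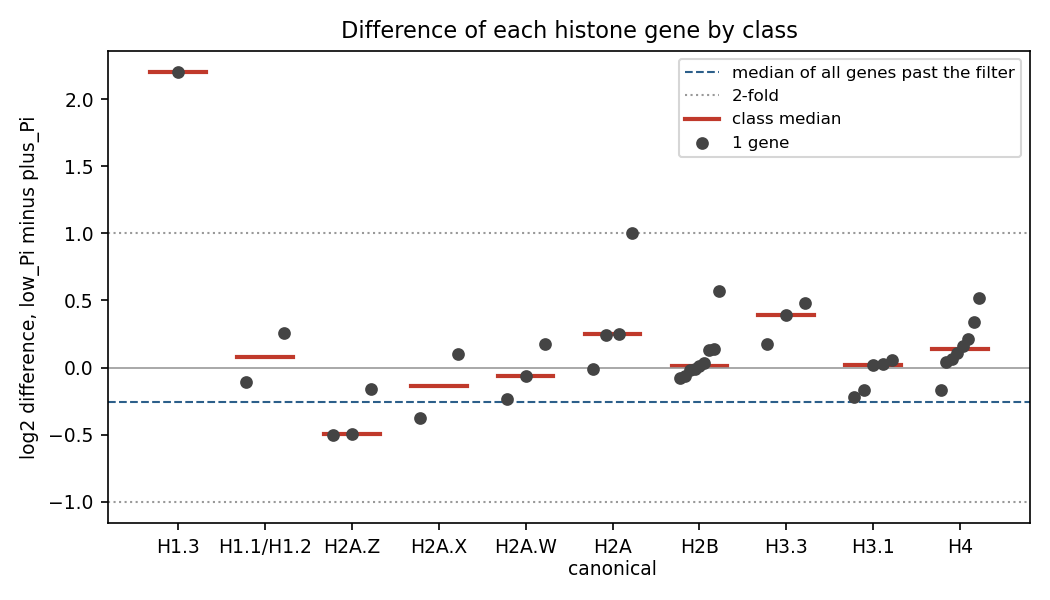
Log2 difference, low_Pi minus plus_Pi, of each histone gene past the filter (dots) by class, with class medians (red bars), the median of all genes at -0.26 (dashed) and the 2-fold limits (dotted). H1.3 at 2.20 lies above every class, H2A.Z has the lowest class median at -0.50, and the H2B and H3.1 genes lie around 0 except HTB6 at 0.57.

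The H2B genes, partners of H2A in the nucleosome, had a median log2 difference of 0.01, or 0.29 with median-of-ratios scaling, and all 9 lay above the median of all genes. In 6 of the 9 genes the groups overlapped, and in the other 3 low_Pi was higher, against 21.9% of all genes. The median was -0.06 without plus_Pi replicate 1 and 0.08 without plus_Pi replicate 2. HTB6 (AT3G53650) had 895 and 820 in low_Pi, versus 534 and 592 in plus_Pi, a log2 difference of 0.57 with no overlap. HTB4 (AT5G59910), the H2B gene with the highest mean, had 10769 and 10050 in low_Pi, compared with 9079 and 9972 in plus_Pi (log2 0.13). At the low end, HTB3 (AT2G28720) had 4077 and 3726 in low_Pi, versus 3951 and 4307 in plus_Pi (log2 -0.08, or 0.19 with median-of-ratios scaling). Summed over the 9 genes as deposited, H2B had 40837 and 37806 in low_Pi, compared with 35938 and 39512 in plus_Pi, and the groups overlapped. As a share of the column totals they did not overlap, with 0.0971% and 0.0974% in low_Pi, against 0.0886% and 0.0885% in plus_Pi.

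The replacement histone H3.3 was higher in low_Pi. With the values as deposited, the groups overlapped in most genes of H3.1, which is placed during replication by the chaperone CAF-1. HTR5 (AT4G40040), the histone gene with the highest values, had 28738 and 26852 in low_Pi, versus 20179 and 22171 in plus_Pi (log2 0.39). HTR8 (AT5G10980) had 12590 and 11774 in low_Pi, compared with 8380 and 9062 in plus_Pi (log2 0.48). HTR4 (AT4G40030) had 13729 and 12626 in low_Pi, versus 11083 and 12262 in plus_Pi (log2 0.18). None of the 3 H3.3 genes overlapped between the groups, with low_Pi higher as for 21.9% of all genes. As deposited, none reached 2-fold or 1.5-fold. With median-of-ratios scaling their median was 0.67 and their range 0.45 to 0.76, which passes 1.5-fold at the median but nowhere 2-fold. No 50-base stretch of an H3.3 gene occurs in another annotated transcript.

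Among the 5 H3.1 genes the median log2 difference was 0.02, or 0.29 with median-of-ratios scaling, and the groups overlapped in 3 of them. In the other 2, HTR9 and HTR13, low_Pi was lower, against 62.5% of all genes. Without plus_Pi replicate 1 the median was -0.05, and without low_Pi replicate 2 it was 0.08. HTR1 (AT5G65360), with the highest mean of these genes, had 4813 and 4468 in low_Pi, compared with 4235 and 4715 in plus_Pi (log2 0.05). HTR13 (AT5G10390) had 696 and 619 in low_Pi, versus 729 and 812 in plus_Pi (log2 -0.22, or 0.05 with median-of-ratios scaling). The H3.1 sum as deposited was 11877 and 10970 in low_Pi, compared with 10949 and 12146 in plus_Pi, with overlap. As a share of the column totals it did not overlap, at 0.02823% and 0.02825% in low_Pi, against 0.02698% and 0.02721% in plus_Pi. Per kb of exon, H3.3 held 73.9% and 74.0% of the summed H3 level in low_Pi, against 68.7% and 68.4% in plus_Pi. HTR3 (AT3G27360, log2 0.03) overlaps AT3G27380, a gene with a mean of 6395, on the same strand, and is uncertain.

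Upstream of the H3.3 genes with the larger differences, HTR5 and HTR8, different motifs were found. Their windows are at chr4:18558946-18559195 and chr5:3473571-3473820, both on the minus strand of TAIR10.1.
HTR5: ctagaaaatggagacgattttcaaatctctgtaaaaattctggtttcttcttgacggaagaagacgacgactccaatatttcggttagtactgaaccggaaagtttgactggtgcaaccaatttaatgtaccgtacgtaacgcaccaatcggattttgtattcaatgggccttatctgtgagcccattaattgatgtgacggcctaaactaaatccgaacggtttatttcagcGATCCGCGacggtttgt
HTR8: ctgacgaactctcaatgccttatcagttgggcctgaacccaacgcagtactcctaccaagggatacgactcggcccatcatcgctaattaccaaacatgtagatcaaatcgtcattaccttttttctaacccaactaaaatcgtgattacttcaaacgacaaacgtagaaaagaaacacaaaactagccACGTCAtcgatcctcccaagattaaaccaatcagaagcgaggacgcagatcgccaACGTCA
HTR5 holds the octamer in reverse orientation, and HTR8 holds the hexamer at 2 positions. The remaining H3.3 gene, HTR4 (log2 0.18), holds none of the motifs searched.

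The 8 H4 genes, which encode the partner of H3, had a median log2 difference of 0.14. As deposited, 7 of them lay above 0, against 28.6% of all genes, and all 8 lay above the median of all genes. With median-of-ratios scaling, which sets the median of all genes at 0.00, all 8 lay above 0. The H4 median stood at 0.06 without plus_Pi replicate 1 and at 0.21 without plus_Pi replicate 2. AT3G53730 had 5033 and 4614 in low_Pi, versus 3201 and 3492 in plus_Pi (log2 0.52). AT5G59690, with the highest mean of the H4 genes, had 5258 and 4879 in low_Pi, compared with 4281 and 4766 in plus_Pi (log2 0.16). AT5G59970 was the 1 gene below 0, with 1911 and 1769 in low_Pi, versus 1977 and 2170 in plus_Pi (log2 -0.17, or 0.10 with median-of-ratios scaling). The groups did not overlap in these 3 genes. Over all 8, low_Pi was higher without overlap in 4, against 21.9% of all genes, and lower in 1, against 62.5%. Summed, H4 had 21903 and 20101 in low_Pi, compared with 17333 and 19097 in plus_Pi. Copies of H4 share sequence, with 25.7% of the 50-base stretches of AT3G45930 and 27.9% of those of AT3G46320 in common with another transcript, and reads of these pairs could be split by the authors' counting.

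Gene structure divided the genes along histone class, so that it is not a separate division, and gene position was also compared. All H2B, H3.1 and H4 genes, 22 in number, have 1 coding exon, and all H1, H2A and H3.3 genes have 2 to 4. The 22 genes with 1 coding exon had a median log2 difference of 0.04, between -0.22 and 0.57. The 18 tested genes with 2 or more had a median of 0.14, between -0.50 and 2.20, so that the widest differences in either direction were among split genes. In 9 cases, neighbouring histone genes lay within 30 kb of each other. HTB6 and the H4 gene AT3G53730, 22133 bases apart on chromosome 3, had log2 differences of 0.57 and 0.52, the highest of the replication-type genes after HTA1. HTR13 and HTR9, 577 bases apart on chromosome 5, stood at -0.22 and -0.17. HTR4 and HTR5, only 42 bases apart on chromosome 4, stood at 0.18 and 0.39. In other pairs the signs differed: HTB3 and AT2G28740 stood at -0.08 and 0.21, HTA6 and HTB4 at -0.23 and 0.13, and HTB4 and AT5G59970 at 0.13 and -0.17. HTB1 at -0.01 and AT1G07820 at 0.11 also differed in sign. Over the 9 pairs the gap in log2 difference ran from 0.05 to 0.36.

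Genes that act with histones in replication and assembly mostly lay below the median of all genes, whereas 37 of the 40 histone genes lay above it. Of 14 genes of S-phase replication, none was 2-fold apart, and 13 lay below the median of all genes (median log2 -0.49, or -0.22 with median-of-ratios scaling). TSO2, a small subunit of ribonucleotide reductase, had 2406 and 2195 in low_Pi, versus 2250 and 2429 in plus_Pi (log2 -0.02). RNR1, the large subunit, had 1917 and 1768 in low_Pi, compared with 2535 and 2748 in plus_Pi (log2 -0.51). Of 10 mitotic genes, none was 2-fold apart, and 3 lay below the median of all genes (median -0.21, or 0.06 with median-of-ratios scaling and -0.13 without plus_Pi replicate 2). CDKB2;1, a mitotic kinase, stood at 0.18 and the cyclin CYCB1;2 at -0.19. CDKB2;2, named after its value was seen, had 1229 and 1146 in low_Pi, versus 711 and 788 in plus_Pi (log2 0.64).

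Histone chaperones carry histones to DNA. Of 14 such genes, none was 2-fold apart, and 11 lay below the median of all genes (median log2 -0.45, or -0.17 with median-of-ratios scaling). NAP1;1, which binds H2A and H2B, had 3569 and 3276 in low_Pi, compared with 6430 and 7083 in plus_Pi, a log2 difference of -0.97. It was the chaperone nearest to 2-fold, and 1 chaperone was 2-fold lower without low_Pi replicate 1 or without plus_Pi replicate 1. Its relative NAP1;2 had 7506 and 6929 in low_Pi, versus 9466 and 10526 in plus_Pi (log2 -0.47). Of 5 genes that place variants, none was 2-fold apart, and 4 lay below the median of all genes (median -0.52, or -0.25 with median-of-ratios scaling). Of the SWR1 complex, which exchanges H2A for H2A.Z, the ATPase PIE1 had 1679 and 1592 in low_Pi, compared with 2259 and 2465 in plus_Pi (log2 -0.52). ARP6 had 715 and 690 in low_Pi, versus 1029 and 1102 in plus_Pi (log2 -0.57), but overlaps AT3G33530, a gene with a mean of 4900.75.

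Markers of root zones also differed between the groups. Of 6 root meristem markers, none was 2-fold higher and all lay below the median of all genes (median log2 -0.75), and their summed values were 3847 and 3521 in low_Pi, compared with 5462 and 5992 in plus_Pi. PLT3, a meristem regulator, was 2-fold lower at -1.09, against 4.47% of all genes. That call was absent without low_Pi replicate 2 and with median-of-ratios scaling, and PLT3 overlaps AT5G10520, a gene of nearly the same mean. SCR stood at -0.45 and SHR at -0.38. Of 4 markers of root hairs and endodermis all lay above 0 under every scaling tried, against 28.6% of all genes as deposited. COBL9 stood at 1.63, EXPA7 at 1.67, CASP1 at 0.56 and RHD6 at 0.45. Their summed values were 23314 and 21782 in low_Pi, versus 11007 and 12312 in plus_Pi. Of 5 green tissue markers, CA1 (-1.32), GAPB (-1.19) and PSAF (-1.16) were at least 2-fold lower, against 4.47% of all genes. RBCS1A stood at -0.82 and LHCB1.1 at -0.33. The count of 3 was 1 with median-of-ratios scaling, 2 with TMM and with quantile normalization, 1 with a filter of 208 and 0 with a pseudocount of 208. None of these markers was at 0 in every library. Their part in the histone values was not tested.

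**Figure D4:**
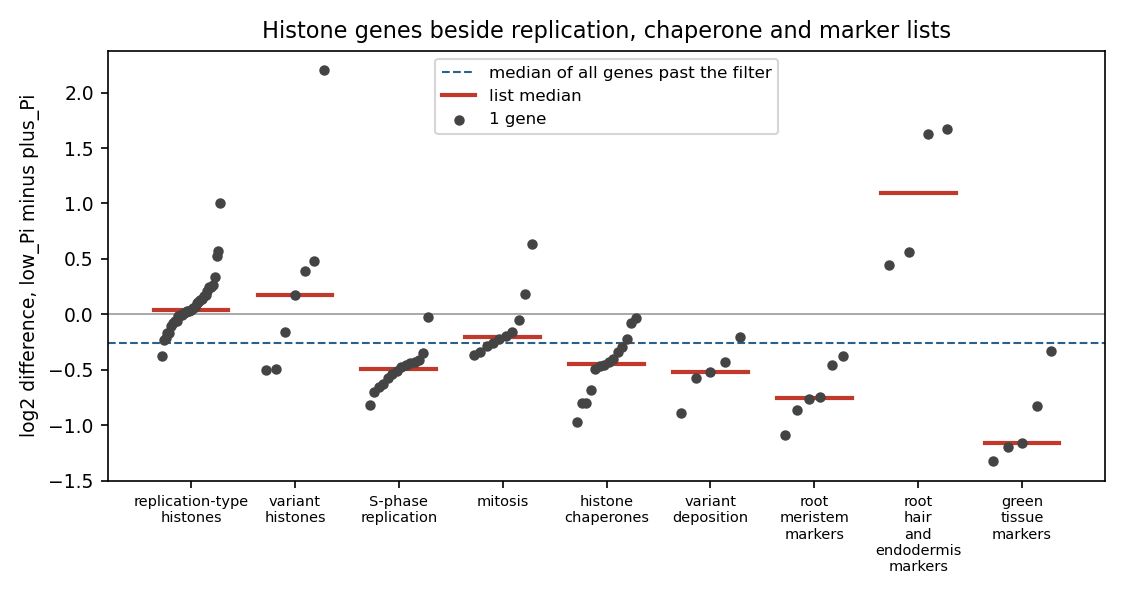
Log2 difference, low_Pi minus plus_Pi, of each gene (dots) with list medians (red bars) and the median of all genes at -0.26 (dashed). Replication-type histones centre at 0.04, above the S-phase genes at -0.49, the chaperones at -0.45 and the meristem markers at -0.75.

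Read against each other, the variant genes showed no shared direction. Their median log2 difference was 0.18 over 7 tested genes, against 0.04 over the 33 replication-type genes (0.10 and -0.02 without plus_Pi replicate 1), but it covers H1.3 at 2.20, H3.3 between 0.18 and 0.48 and H2A.Z between -0.50 and -0.16. The difference of the 2 medians, replication-type minus variant, was -0.13 and became 0.04 with HTA4 included, when no filter was applied.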

How the data were processed

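Roots of 4 libraries (2 low_Pi, 2 plus_Pi) were compared. Per the labels' protocols, poly(A) RNA was captured on oligo(dT) beads after DNase treatment and sequenced on Illumina; strand is not mentioned. Tools named in the submitters' processing notes, without roles, are HISAT2, HTSeq, edgeR, FastQC and CASAVA 1.4. The authors deposited whole-number normalized counts, treated here as a score of unknown depth; the normalization and genome build are not given in the sources used here. The second low_Pi column was matched by name to its group only. Values were used as deposited. Genes with a mean of at least 41.5 (1 ppm of the mean column total, also the pseudocount) were kept, 18729 of 27655. A difference is the mean log2 of low_Pi minus that of plus_Pi. Calls use a 2-fold size rule and no test. On average over genes, the columns of a group differ by less than the sampling noise of read counts, although some genes differ more. Whether the columns are independent is therefore unknown. Levels between genes used the union of annotated exons in RefSeq TAIR10.1, whose coordinates are its own. Members and lists were chosen with earlier results of these data known. Named genes are all linker, H2A.Z, H2A.X, H2A.W and H3.3 genes, any at least 2-fold apart, per other class the extremes and the highest mean, and per other list the 2 highest means; others given as examples were chosen after their values were seen. Calculations ran in Python 3.11.15 with pandas 2.3.3, and were tested on simulated data. Alternatives covered pseudocount, filter, scaling, fold size, class split and omission of each library.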

Additional observations from a re-analysis of the deposited data

How the results depend on the processing

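No paired analysis was possible because the results come from no test to which a replicate block could be added. Between columns of the same number, H1.3 differed by 2.35 (replicate 1) and 2.05 (replicate 2) on the log2 scale. Depth is unknown, and differences within about 0.1 (log2) are as small as the gap between columns of a group. With a pseudocount of 208, 1 histone gene (H1.3) was at least 2-fold higher, the H2A.Z median was -0.36, the meristem marker median -0.44 and the green tissue marker median -0.65, and no meristem (0) or green tissue (0) marker was 2-fold lower. With a pseudocount of 4.15 the meristem marker median was -0.85, with 2 genes 2-fold lower. With no filter the median was -0.36 for H2A.Z, 0.006 for variant genes and -0.082 for all genes, and the replication-type minus variant difference was 0.0355. With a filter of 208 the green tissue marker median was -0.82, with 1 gene 2-fold lower.

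Scaling raised most values, and quantile normalization also changed genes unequally, from -0.06 to 0.23 over the histone genes. With median-of-ratios, TMM and quantile normalization, in this order, the median was 0.32, 0.31 and 0.23 for all histone genes, 0.31, 0.30 and 0.22 for replication-type genes, 0.52, 0.51 and 0.37 for canonical H2A, 0.13, 0.12 and 0.0242 for H2A.X, 0.21, 0.20 and 0.0853 for H2A.W, -0.23, -0.24 and -0.26 for H2A.Z, 0.29, 0.27 and 0.17 for H2B, 0.29, 0.28 and 0.15 for H3.1, 0.41, 0.40 and 0.27 for H4, and 0.0003, -0.0104 and -0.0789 for all genes. With median-of-ratios and TMM it was 0.45 and 0.44 for variant genes, 0.67 and 0.66 for H3.3, 0.35 and 0.34 for H1.1 with H1.2, and 2.48 and 2.47 for H1.3. Quantile normalization gave a replication-type minus variant difference of -0.0137 and an H3.3 share 3.65 points higher in low_Pi. In the order of these 3 scalings, the other lists had medians of -0.22, -0.23 and -0.29 (S-phase), 0.0628, 0.0515 and -0.014 (mitosis), -0.17, -0.19 and -0.28 (chaperones), -0.25, -0.26 and -0.36 (variant deposition), -0.51, -0.52 and -0.54 (meristem), 1.37, 1.36 and 1.22 (hair and endodermis) and -0.90, -0.91 and -0.96 (green tissue). No (0) meristem marker was 2-fold lower under these 3, and 1 green tissue marker was with median-of-ratios. A common column total added 0.06 to 0.07 to the log2 difference of each histone gene past the filter. None of these values moved by more than its spread over the 4 pairings of a low_Pi with a plus_Pi library. That spread includes the gap between the column totals of a group, so it is a loose yardstick and not a check. The common column total did take the H2A.W median from -0.06 to 0.01. With it 5 histone genes changed sign, and 30 of the 40 lay above 0, against 25 as deposited. The 1.5-fold rule also called H1.3 and HTA1. Leaving H2A.X and H2A.W out of the replication-type genes moved neither their median nor its difference from the variant median beyond that spread. The cause of the changes was not tested.

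Without 1 library, the histone genes at least 2-fold higher numbered 1 to 2, 2-fold lower chaperones 0 to 1 and 2-fold lower meristem markers 0 to 1. The median ran from -0.02 to 0.10 for all histone genes, from -0.02 to 0.10 for replication-type genes, from 0.10 to 0.25 for variant genes, from 0.0029 to 0.15 for H1.1 with H1.2, from -0.28 to -0.13 for mitosis and from 2.10 to 2.30 for H1.3, each lowest without plus_Pi replicate 1 and highest without plus_Pi replicate 2, except the replication-type median, highest without low_Pi replicate 2. Omitting low_Pi replicate 1 lowered, and omitting low_Pi replicate 2 raised, each of these medians too. The H1.3 share of H1 was 28.04 to 28.58 points higher in low_Pi.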
